A study of Mus musculus with 21 samples.

Results

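RNA was sequenced from dorsal root ganglia (DRG) of mice given CFA, and the libraries labelled as carrying a conditional knockout of Tmem45b were set against those labelled as floxed controls. The libraries were chosen by their labels alone: 8 of the 21 in the study are named CFA, 4 of them cKO and 4 flox. By the sample titles, both groups carry the floxed Tmem45b allele and both come from the CFA model. The only difference in the titles is the Cre recombinase driven from Mrgprd in the cKO mice (Tmem45b-flox::Mrgprd-cre against Tmem45b-flox). The genotype field, however, names the Cre line for every sample, and the count columns call the controls WT. The labels do not spell out CFA, which usually stands for complete Freund's adjuvant, an oil emulsion of killed mycobacteria that causes lasting inflammation at the injection site. They give no strain, age, sex, injection site, time after injection or number of animals behind a library, do not say whether the Cre can be induced, and do not say that libraries of one group came from separate mice. P-values therefore rest on the spread between these libraries, some of which may be technical. The study's other libraries come from untreated mice of both genotypes, and only the 6 named LDRG (3 flox, 3 cKO), which were deposited in the same table, are used here for comparison.

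Dorsal root ganglia hold the cell bodies of the sensory neurons of the trunk and limbs, wrapped in satellite glia and joined by Schwann cells, vessels, fibroblasts and macrophages. Mrgprd encodes a G protein-coupled receptor that marks a class of small nonpeptidergic neurons, called NP1, which send unmyelinated fibres to the skin. Tmem45b encodes a protein with several membrane-spanning segments, and the study's title links it to itch and to calcium in the endoplasmic reticulum. A Cre driven from Mrgprd can delete a floxed gene only in cells in which that Cre is or was active. All other cells of the ganglion keep the gene, and in whole ganglia their RNA is sequenced together with that of the targeted neurons. In such bulk samples fewer cells of a type and less RNA per cell cannot be told apart.

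The 8 libraries held 68.9 M to 71.8 M counts each, over 17611 to 17798 genes detected. Levels are given as CPM, counts scaled to a common library size after TMM scaling, a correction for library composition, and are listed in the order of the replicate numbers 1 to 4. Differences are log2 of cKO over flox, so that 1 is a doubling and a value below 0 means a lower level in cKO. All pairs of replicates differed by more than counting noise, with 31.2 to 81.3 for chi-square over its degrees of freedom. The first component over the 1000 most variable genes held 18.1% of their variance and ran from -32.7 to 19.7 in flox and from -15.6 to 23.9 in cKO, so it did not separate the labels. The ganglion's own markers were present in all 8 libraries: the neurofilament gene Nefh, for example, lay between 2909 and 3908 CPM. Central glia markers, which would come from attached spinal cord, were low, with a summed level of 46.1 to 53.7 CPM in flox and 51.4 to 54.5 CPM in cKO and with Opalin and Klk6 at 0 in all libraries. Xist was between 275 and 451 CPM and the Y-linked Ddx3y at 0 in all 8 CFA libraries.

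Tmem45b itself did not separate the labels. Its level was 63.7, 112, 132 and 77.7 CPM in flox 1 to 4, and 105, 103, 65.7 and 60.7 CPM in cKO 1 to 4. The groups overlapped fully: flox 1 lay below 3 of the libraries labelled cKO, and cKO 1 and 2 lay above flox 1 and 4. The difference was -0.21 (SE 0.26, 95% interval -0.78 to 0.37), with an adjusted p of 0.963 by edgeR's quasi-likelihood test (Benjamini-Hochberg, 16116 genes). A two-sided exact permutation test of this gene gave p = 0.543, where the smallest p that 4 against 4 allows is 0.0286. Without flox 1 the difference was -0.36 and without flox 3 it was -0.02. Every direction below is therefore one between libraries labelled cKO and libraries labelled flox. The gene, on the minus strand at chromosome 9, 31426196 to 31464462 (mm10), is counted as a whole. Which exons are floxed is not given in the labels, and exons that stay in place, like cells without Cre, still add reads.

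**Figure D1:**
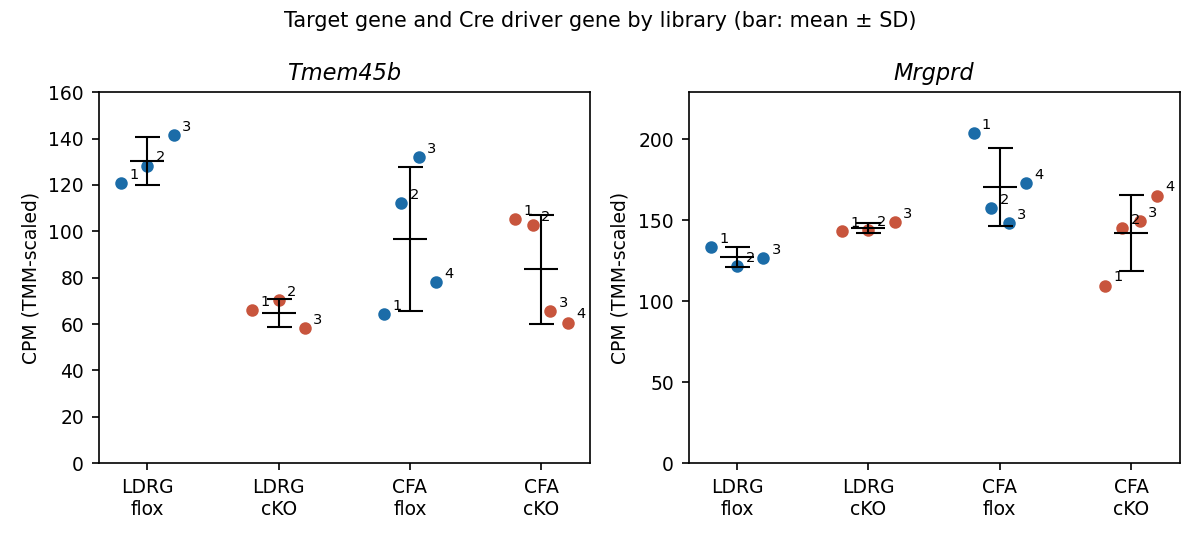
Level of Tmem45b (left) and Mrgprd (right) in CPM, scaled over the 14 libraries of the table, by group; each point is a library with its replicate number, and the bars are the mean and SD. Tmem45b in the LDRG libraries lies at 121 CPM or above in flox and at 70.2 CPM or below in cKO, whereas the CFA groups overlap.

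In the untreated LDRG libraries of the same table the levels of Tmem45b did not overlap between the labels. On a scale shared by the 14 libraries it was at 121, 128 and 141 CPM in flox and at 66.1, 70.2 and 58.3 CPM in cKO. The difference was -1.0 (SE 0.26), and after adjustment over all genes edgeR did not call it either. The genotype difference in CFA libraries was 0.79 above that in LDRG libraries (SE 0.34, 95% interval 0.07 to 1.52), with an unadjusted p of 0.0338 for this gene in the edgeR model and an adjusted p of 0.942 over 16605 genes. CFA and LDRG libraries also differed in other ways. Xist ranged from 275 to 451 CPM in CFA and from 0.0983 to 0.321 CPM in LDRG libraries. Ddx3y was at 0 in CFA and at 73.1 to 88.6 CPM in LDRG libraries. This is a female pattern in CFA and a male pattern in LDRG libraries, though the labels give no sex. Treatment and sex therefore cannot be told apart in any comparison of CFA with LDRG libraries here. Over all genes, edgeR called 0 for a genotype difference that depended on the set, and 840 (5.06%) had an unadjusted p under 0.05.

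Mrgprd, the gene from which the Cre is driven, was at 202, 157, 148 and 172 CPM in flox and at 109.6, 145, 149 and 165 CPM in cKO. The groups overlapped, with cKO 1 the lowest and flox 1 the highest of the 8. The difference was -0.25 (SE 0.13, adjusted p = 0.938 by edgeR with Benjamini-Hochberg adjustment), and the two-sided exact permutation test gave p = 0.171. In LDRG libraries the difference was 0.19 (SE 0.13). Both relatives of Tmem45b tested were scarce. Tmem45a lay between 0.702 and 1.43 CPM (difference -0.24, SE 0.24) and Tmem45a2 at 0.234 CPM or below.

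No gene passed the test across the genome. Of 16116 genes edgeR called 0 higher and 0 lower (0%), and limma's voom with sample quality weights also called 0. An unadjusted p under 0.05 was given to 799 genes (4.96%), 470 higher (2.92%) and 329 lower (2.04%) in cKO, where a flat distribution of p would give 806. DESeq2 called 12 genes higher (0.0746%) and 6 lower (0.0373%) of the 16079 it adjusted. A total of 545 genes (3.38%) had 4 values in one group all above the 4 of the other, 286 higher (1.77%) and 259 lower (1.61%) in cKO. Over all genes the median difference was 0.01, and 52.5% of genes lay above 0.

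**Figure D2:**
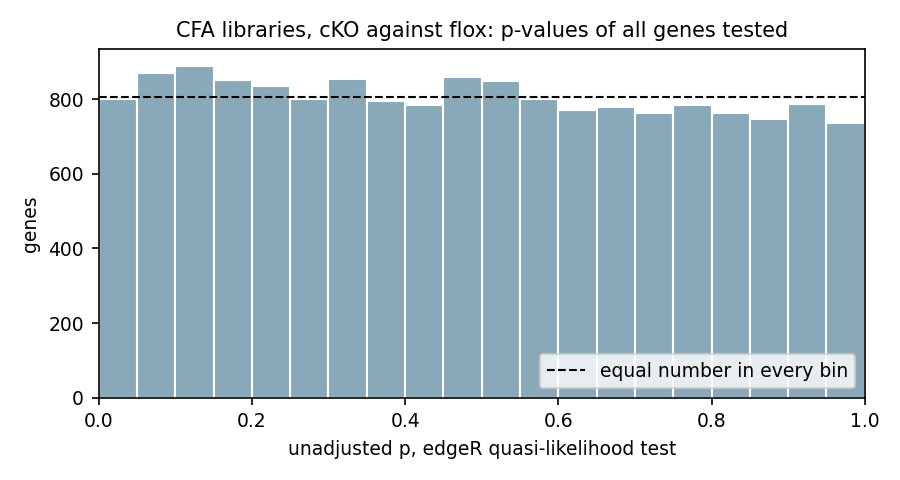
Number of genes in each bin of unadjusted p from the edgeR quasi-likelihood test, over all genes tested in the 8 CFA libraries; the dashed line is an equal number in every bin. The lowest bin holds 799 genes against 806 for an equal share.

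The 20 genes with the smallest p are given as values, since none passed the test. Before ranking, 6 sex-linked genes and symbols ending in Rik, starting with LOC or made of Gm and a number were left out. Of the 20, 13 were higher and 7 lower in cKO, all with an adjusted p of 0.938 by edgeR. Their sizes ran from 0.293 to 1.24 on the log2 scale. Among them are 17 of the 18 genes that DESeq2 called, the other being Tmem170b. In 18 of the 20 the groups did not overlap, which the ranking by p favours. In the untreated LDRG libraries, which the ranking did not use, 9 of the 20 (45%) differed in the same direction, against 47.9% of all genes and 45.1% of the 545 genes without overlap.

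**Figure D3:**
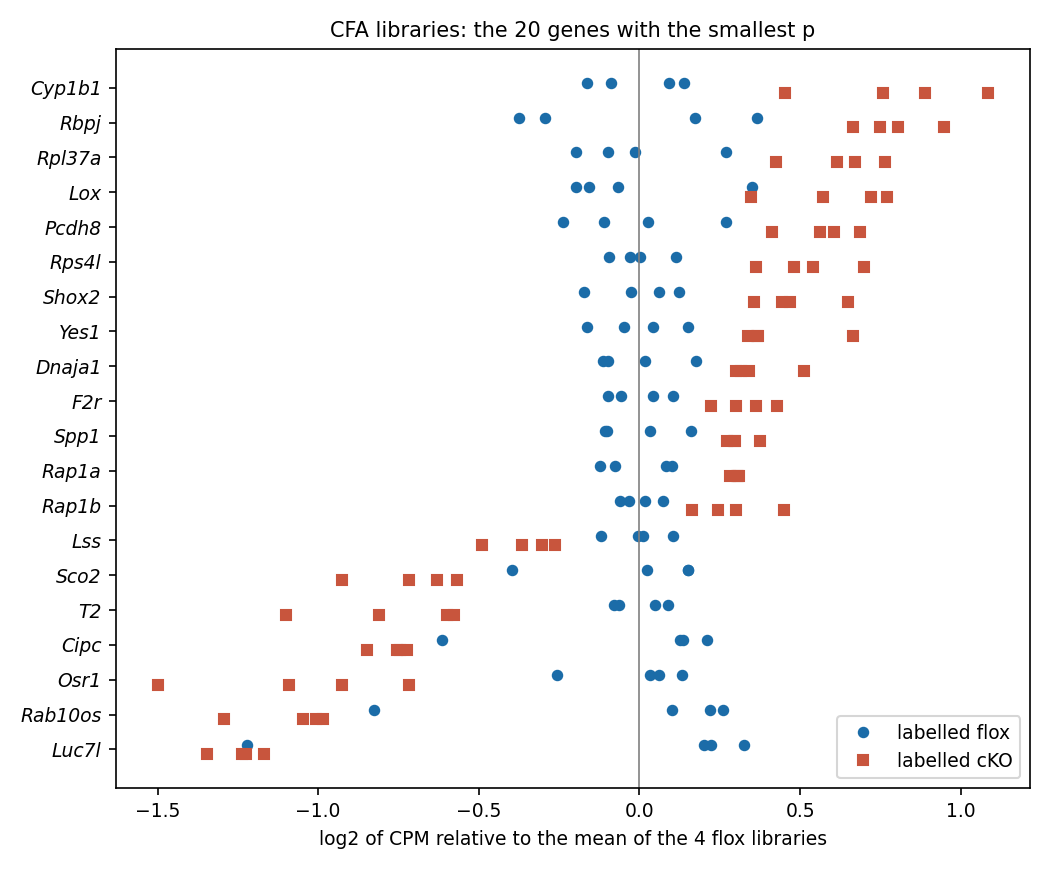
The 20 genes with the smallest p after the exclusions given above, with each library's level as log2 of CPM relative to the mean of the 4 flox libraries. Circles are labelled flox, squares labelled cKO. Groups of 18 genes do not overlap, and for Luc7l and Cipc a single flox library lies apart from the other 3.

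Cyp1b1 had the smallest p of the 20. It encodes a cytochrome P450 that metabolises steroids and foreign compounds and is made by fibroblasts and pericytes. Its level was 36.5, 35.3, 31.1 and 29.6 CPM in flox and 61.4, 70.3, 56.0 and 45.3 CPM in cKO. All libraries labelled cKO were above all labelled flox, 1.76-fold on the means (difference 0.81, SE 0.13, adjusted p = 0.938 by edgeR and 9.98e-06 by DESeq2). The gene spans 79701537 to 79715061 of chromosome 17, minus strand (mm10), and its difference in LDRG libraries was 0.18 (SE 0.20).

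Matrix and mesenchymal genes among the 20 did not share a direction. Lox, the enzyme that crosslinks collagen and elastin, was at 43.3, 32.4, 29.6 and 30.5 CPM in flox and at 57.9, 50.4, 55.9 and 43.1 CPM in cKO (0.61, SE 0.14). Flox 1 lay just above cKO 4, so these groups overlapped. Osr1, a zinc finger transcription factor of embryonic mesenchyme, was low throughout, at 1.49, 1.20, 1.46 and 1.57 CPM in flox and 0.868, 0.752, 0.506 and 0.671 CPM in cKO (-1.03, SE 0.21). Its difference in LDRG libraries had the opposite sign (1.08, SE 0.33). Of 16 fibroblast and perineurium genes, 11 lay above 0 and 5 below, with a median of 0.14 against 0.01 for all genes. At an unadjusted p under 0.05, 2 were higher (Cyp1b1 and Lox) and 1 lower (Osr1), against 2.92% and 2.04% of all genes. All of these are among the 20 picked for their small p, so the counts add nothing to that ranking. The list's summed level was 1702, 1352, 1203 and 1193 CPM in flox and 1687, 1524, 1372 and 1337 CPM in cKO, overlapping ranges.

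Transcription factors and signalling genes made up another group. Shox2, a homeobox gene that marks subsets of touch neurons in development, was at 20.7, 21.9, 18.7 and 22.9 CPM in flox and at 28.6, 26.9, 29.1 and 33.0 CPM in cKO (0.48, SE 0.09). Its locus overlaps Rsrc1 on the other strand, and whether the counting used strand is not stated. Rbpj, the DNA-binding partner of Notch, was at 29.4, 25.8, 18.6 and 17.6 CPM in flox and at 39.9, 38.4, 36.2 and 44.1 CPM in cKO (0.79, SE 0.16). Both genes were higher in all 4 libraries labelled cKO than in any labelled flox. The rest of the Notch pathway lay close to all genes: the median of 18 members was 0.05, and besides Rbpj only Hey1, a target of the pathway, had an unadjusted p under 0.05 (0.19, SE 0.07).

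Small GTPases of the Rap family, molecular switches that control adhesion and signalling to ERK, appeared as a pair. Rap1a was at 24.1, 23.4, 27.3 and 27.0 CPM in flox and at 31.5, 31.6, 30.9 and 31.4 CPM in cKO (0.30, SE 0.07). Rap1b was at 189.8, 179.5, 183 and 197 CPM in flox and at 209.7, 231, 222 and 256 CPM in cKO (0.29, SE 0.07). Neither pair of groups overlapped. Rala, a related GTPase, also had groups without overlap (0.18, SE 0.06). Of 13 Ras and Rap genes, 3 were thus higher without overlap, against 1.77% of all genes. Among these, Rap1a and Rap1b had been picked for their small p, so this count repeats the ranking in part. Of the 13, 11 lay above 0, against 52.5% of all genes, with a median of 0.06. In LDRG libraries the list's median was -0.01.

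Among the other receptor, kinase and adhesion genes, F2r encodes the thrombin receptor PAR1. It was at 22.7, 23.7, 20.6 and 21.2 CPM in flox and at 25.7, 27.1, 28.4 and 29.7 CPM in cKO (0.33, SE 0.07). Yes1, a kinase of the Src family, was at 21.6, 23.4, 24.9 and 26.9 CPM in flox and at 31.3, 31.2, 30.6 and 38.4 CPM in cKO (0.44, SE 0.09). The protocadherin gene Pcdh8 was at 4.03 to 5.73 CPM in flox and 6.32 to 7.65 CPM in cKO (0.57, SE 0.12). All 3 had groups without overlap and were called by DESeq2 (adjusted p of 0.0482, 0.0328 and 0.0482), and their differences in LDRG libraries were -0.13, -0.01 and 0.25.

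Metabolic and ribosomal genes were on both sides. Lss encodes lanosterol synthase, which closes the ring system of sterols. Its level was 87.4, 79.9, 86.5 and 93.3 CPM in flox and 61.8, 72.3, 67.3 and 70.3 CPM in cKO, with no overlap (-0.35, SE 0.07, adjusted p = 0.938 by edgeR and 0.00701 by DESeq2). The other genes of the pathway did not share this: the 24 sterol synthesis genes had a median of -0.05, and Lss was the only one with an unadjusted p under 0.05. Sco2, which delivers copper to cytochrome c oxidase, was at 4.26, 5.70, 6.23 and 6.23 CPM in flox and at 3.63, 2.95, 3.41 and 3.78 CPM in cKO (-0.70, SE 0.15). It overlaps Ncaph2 on the other strand, and of 15 respiratory chain and copper genes it was the only one with an unadjusted p under 0.05 (list median 0.01). T2, which lies on chromosome 17 from 8355992 to 8423513, was low, at 1.88 to 2.11 CPM in flox and 0.927 to 1.33 CPM in cKO (-0.76, SE 0.16).

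Another 3 of the 20 are hard to read as single genes. Rps4l is annotated as a transcribed processed pseudogene of a ribosomal protein gene inside Tmtc1, and was at 14.4, 15, 15.4 and 16.6 CPM in flox and 24.9, 19.7, 21.4 and 22.3 CPM in cKO (0.52, SE 0.09). Rpl37a, a ribosomal protein gene with many near-identical copies, was at 2.66 to 3.68 CPM in flox and 4.10 to 5.18 CPM in cKO (0.62, SE 0.13). Such copies can share reads, so both values are uncertain. Rab10os, an antisense transcript of Rab10, was at 13.7, 6.62, 12.6 and 14.1 CPM in flox and 5.93, 5.84, 4.79 and 5.68 CPM in cKO (-1.08, SE 0.22). Reads of Rab10os and Rab10 cannot be told apart without strand. Without flox 2, its lowest flox library, the difference was -1.27 and Rab10os passed the edgeR test (adjusted p = 0.0223). In LDRG libraries Rab10os was at 11.3, 13.2 and 5.07 CPM in flox and at 5.10, 12.7 and 5.01 CPM in cKO. A low and a high level thus occurred in both labels there.

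Dnaja1 encodes a co-chaperone of the HSP40 family that hands unfolded proteins to HSP70. It was at 216, 214, 234 and 261 CPM in flox and at 288, 285, 293 and 329.6 CPM in cKO, with no overlap (0.37, SE 0.08, adjusted p = 0.938 by edgeR and 0.0221 by DESeq2). The locus overlaps Smu1 on the other strand. Cytosolic chaperones are switched on together by heat shock factor, which binds repeats of GAA and its complement. For this reason the promoters of the members with groups that did not overlap were searched for GAANNTTC on both strands (the motif reads the same on each), over 250 bases before and 50 after the start sites given by RefSeq. One of 3 promoters of Dnaja1, the 1 promoter of Chordc1 and 0 of 2 promoters of Dnajb4 held it, against 7.86% of all 32851 promoters, and the table had 0 entries for Hsp90aa1. The matching stretches follow with the motif in capitals, on the plus strand of GRCm38.p6: chr4:40722334-40722487 for Dnaja1, with the motif starting at position -124 from the start site, and chr9:18292167-18292286 for Chordc1, with 2 matches, the first at -4. A match is a description of the letters, not evidence of binding.
Dnaja1: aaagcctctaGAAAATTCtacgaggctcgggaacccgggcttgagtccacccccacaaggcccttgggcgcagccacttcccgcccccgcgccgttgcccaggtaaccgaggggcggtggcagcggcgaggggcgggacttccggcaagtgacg
Chordc1: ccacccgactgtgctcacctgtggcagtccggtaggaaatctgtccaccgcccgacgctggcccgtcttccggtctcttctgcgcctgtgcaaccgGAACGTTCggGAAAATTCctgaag

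Of 18 cytosolic heat shock chaperone genes, 16 lay above 0 and 2 below, with a median of 0.07 (0.02 to 0.09 when any 1 library was left out) against 0.01 for all genes. Of these, 4 had an unadjusted p under 0.05, and the same 4 had groups without overlap, all higher in cKO, against 2.92% and 1.77% of all genes. Chordc1, a partner of HSP90, was at 121, 107, 114 and 125 CPM in flox and at 126, 140.2, 140.1 and 168 CPM in cKO (0.30, SE 0.09). Hsp90aa1, the inducible HSP90, was at 697, 669, 725 and 750.1 CPM in flox and at 751, 759, 786 and 932 CPM in cKO (0.18, SE 0.08), with flox 4 just below cKO 1. Dnajb4, another HSP40 gene, was at 80.9 to 87.4 CPM in flox and 90.2 to 111 CPM in cKO (0.17, SE 0.07). In all of these 4 genes cKO 4 was the highest library. The list's summed level overlapped between the groups, at 5744 to 6605 CPM in flox and 6484 to 6670 CPM in cKO, and its median in LDRG libraries was -0.04.

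Cipc encodes a protein that binds CLOCK and represses the CLOCK and BMAL1 pair of the circadian clock. Its level was 67.7, 114, 119.9 and 113 CPM in flox and 57.6, 61.3, 61.8 and 62.8 CPM in cKO. The groups did not overlap, but flox 1 lay near the cKO libraries and far from the other flox libraries (-0.77, SE 0.16, adjusted p = 0.938 by edgeR and 0.00162 by DESeq2). Without flox 1 the difference was -0.93 and Cipc passed the edgeR test (adjusted p = 0.00037). All 6 LDRG libraries, of both genotypes, were at 59.9 to 65.1 CPM, the level of the CFA libraries labelled cKO. CLOCK and BMAL1 bind the E-box CACGTG, which is its own complement. It was found on searching both strands in 1 of 2 RefSeq promoters of Cipc, against 7.15% of all promoters, at position -17 of the stretch chr12:86947243-86947362 on the plus strand of GRCm38.p6, shown with the motif in capitals.
Cipc: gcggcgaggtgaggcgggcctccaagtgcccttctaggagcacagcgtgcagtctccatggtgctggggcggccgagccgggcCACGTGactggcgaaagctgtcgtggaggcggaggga

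Other clock genes gave no common direction. Of 20, 12 lay above 0 and 8 below, with a median of 0.03. At an unadjusted p under 0.05, 2 were higher and 2 lower, against 2.92% and 2.04% of all genes. Bhlhe40, a repressor of the clock, was at 25.6, 27.2, 25.5 and 27.1 CPM in flox and at 31.7, 28.8, 31.7 and 31.2 CPM in cKO, with no overlap (0.23, SE 0.06). Npas2, a relative of CLOCK, was at 2.73, 2.77, 4.55 and 3.92 CPM in flox and at 2.52, 2.66, 2.49 and 2.23 CPM in cKO (-0.50, SE 0.18). The negative-limb gene Per1 overlapped between groups (0.25, SE 0.11), with cKO 3 the lowest of the 8 at 17.4 CPM and cKO 4 the highest at 24.2 CPM. E-box matches were found in 1 of 2 promoters of Per1 and 0 of 1 promoter of Npas2.

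A pattern seen in several of these genes was a library at a wholly different level from its replicates. Luc7l, a splicing factor of the U1 particle, was at 31.9, 85.6, 93.2 and 86.9 CPM in flox and at 29.3, 33.1, 31.8 and 31.6 CPM in cKO (-1.24, SE 0.28, adjusted p = 0.938 by edgeR). The values fall on a low and a high level, with flox 1 on the low one together with the 4 cKO libraries. In LDRG libraries flox 2 was at 84.9 CPM and the other 5 were at 27.9 to 34.8 CPM, so both levels occurred in the flox label there too. Without flox 1 the difference in CFA libraries was -1.50 and Luc7l passed the edgeR test (adjusted p = 7.58e-05).

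Tmem170b, the remaining DESeq2 call (adjusted p = 0.0406), was at 0.549, 0.348, 29.6 and 31.7 CPM in flox and at 0.331, 0.361, 0.393 and 0.533 CPM in cKO. Flox 1 and 2 were thus at the level of the cKO libraries, and the groups overlapped (edgeR unadjusted p = 0.00418). In LDRG libraries Tmem170b was at 30.5, 32.1 and 29.8 CPM in flox and at 26.9, 0.193 and 31.4 CPM in cKO. Eif4e, which encodes the cap-binding translation factor, was at 64.7, 0.529, 65.3 and 0.570 CPM in flox and at 68.0, 71.2, 69.5 and 85.5 CPM in cKO (1.17, SE 1.17). Here flox 2 and 4 were near 0 for a gene that the other CFA libraries held at 64.7 CPM or more. In LDRG libraries Eif4e was at 5.62 CPM in flox 1 and at 61.0 to 71.2 CPM in the others. Across the CFA libraries 58 genes (0.36%) had 3 counts or fewer in 1 library and 100 or more in another; neither Eif4e (38 counts in flox 2) nor Tmem170b is among them. Removing those genes left 0 calls.

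Further genes without overlap, at a mean of at least 5 CPM, showed the same kind of spread within a label. Plekhm3 was at 211, 203, 184 and 203 CPM in flox and at 45.2, 63.9, 177 and 56.1 CPM in cKO (-1.23, SE 0.38), so cKO 3 was close to flox. Without cKO 3 it passed the edgeR test (-1.87, adjusted p = 0.00242). Tcf4, a transcription factor gene, was at 17.4, 15.4, 37.4 and 15.3 CPM in flox and at 43.5, 45.3, 38.6 and 45.2 CPM in cKO (1.01, SE 0.27). It passed the edgeR test without flox 3 (1.42, adjusted p = 0.00093). In LDRG libraries Tcf4 was at 11.8 CPM in flox 3 and at 35.8 to 40.0 CPM in the others. In the genes Rab30 (1.26, SE 0.59), Zrsr2 (0.97, SE 0.33) and Qki (0.65, SE 0.22), too, 1 or 2 libraries of a label lay apart from the others of that label. Zfp973, a zinc finger gene, was at 5.81, 2.52, 5.06 and 4.72 CPM in flox and at 6.69, 5.99, 7.47 and 14.3 CPM in cKO, with cKO 4 the highest (0.93, SE 0.32).

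The clustered protocadherin genes Pcdhgc4 (5.65 to 12 CPM in flox, 3.19 to 5.58 CPM in cKO; -0.75, SE 0.27) and Pcdhgb7 (6.08 to 8.46 CPM in flox, 4.97 to 5.91 CPM in cKO; -0.47, SE 0.12) were lower without overlap. They share exons with the rest of their cluster, so reads may be split between its members, and both values are uncertain. The genes that follow, also without overlap, are known in myelin, immune and other cells. Trim30a, an interferon-inducible gene of macrophages, was at 4.42, 4.40, 4.23 and 5.06 CPM in flox and at 5.42, 5.60, 6.07 and 14.1 CPM in cKO, with cKO 4 far above the rest (0.78, SE 0.30). Egr2, the master transcription factor of myelination, was at 10.7, 11.4, 12.9 and 2.19 CPM in flox and at 19.2, 17.9, 16.9 and 15.2 CPM in cKO (0.90, SE 0.42). Cx3cr1, the fractalkine receptor of macrophages, was at 9.41, 7.25, 7.29 and 7.24 CPM in flox and at 6.49, 6.29, 5.98 and 5.06 CPM in cKO (-0.39, SE 0.12). Its annotated span overlaps Gorasp1, Csrnp1 and Xirp1 on the same strand and Wdr48 and Ttc21a on the other, so its value is uncertain. The complement gene C2, which overlaps Zbtb12 on the other strand, was at 9.70 to 17.2 CPM in flox and at 7.53 to 9.37 CPM in cKO (-0.60, SE 0.16). The semaphorin gene Sema4c (-0.43, SE 0.14) and the Mediator subunit gene Med20 (-0.46, SE 0.11) were also lower in all libraries labelled cKO, and none of the genes in this group passed the edgeR or the DESeq2 test.

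The neuron classes came next, beginning with the class the Cre addresses. All 14 NP1 genes tested lay below 0 in cKO, with a median of -0.17 against 0.01 for all genes, and 7 of them had an unadjusted p under 0.05, where 2.04% of all genes were lower at that p. Tmem45b and Mrgprd are themselves among the 14. With any 1 library left out, the median stayed between -0.20 and -0.14 and 12 to 14 of the 14 lay below 0. The members share the same 8 libraries and many share neurons, so they are not independent of each other, and Mrgprx1 is also counted among the NP2 genes below. The summed level of the list was 2109, 2093, 2228 and 2261 CPM in flox and 1777, 1981, 1945 and 2000 CPM in cKO, without overlap. Such separation was not particular to neuron classes. The summed level of ERK feedback genes did not overlap either, at 611.8 to 710.1 CPM in flox and 728.6 to 897.4 CPM in cKO. Nor did that of Ras and Rap genes, at 1019 to 1072 CPM in flox and 1087 to 1243 CPM in cKO. In LDRG libraries the median of the NP1 genes was -0.09.

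P2rx3, the ATP-gated channel of nonpeptidergic neurons, was the NP1 gene with the smallest p and the only one without overlap. It was at 259.8, 241, 230.4 and 246 CPM in flox and at 195, 228, 211 and 215 CPM in cKO (-0.20, SE 0.06, adjusted p = 0.938 by edgeR), and its difference in LDRG libraries was also -0.20. Mrgprx1, a receptor for pruritogens, was at 22.8 to 28.1 CPM in flox and 18.7 to 23.8 CPM in cKO (-0.28, SE 0.09). Wnt2b, a secreted Wnt ligand, was at 20.4 to 23.2 CPM in flox and 17.2 to 21.0 CPM in cKO (-0.24, SE 0.09). Plxnc1, a semaphorin receptor, was at 411 to 466 CPM in flox and 352 to 413 CPM in cKO (-0.18, SE 0.06). In these 4 genes cKO 1 or cKO 2 was the lowest library.

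**Figure D4:**
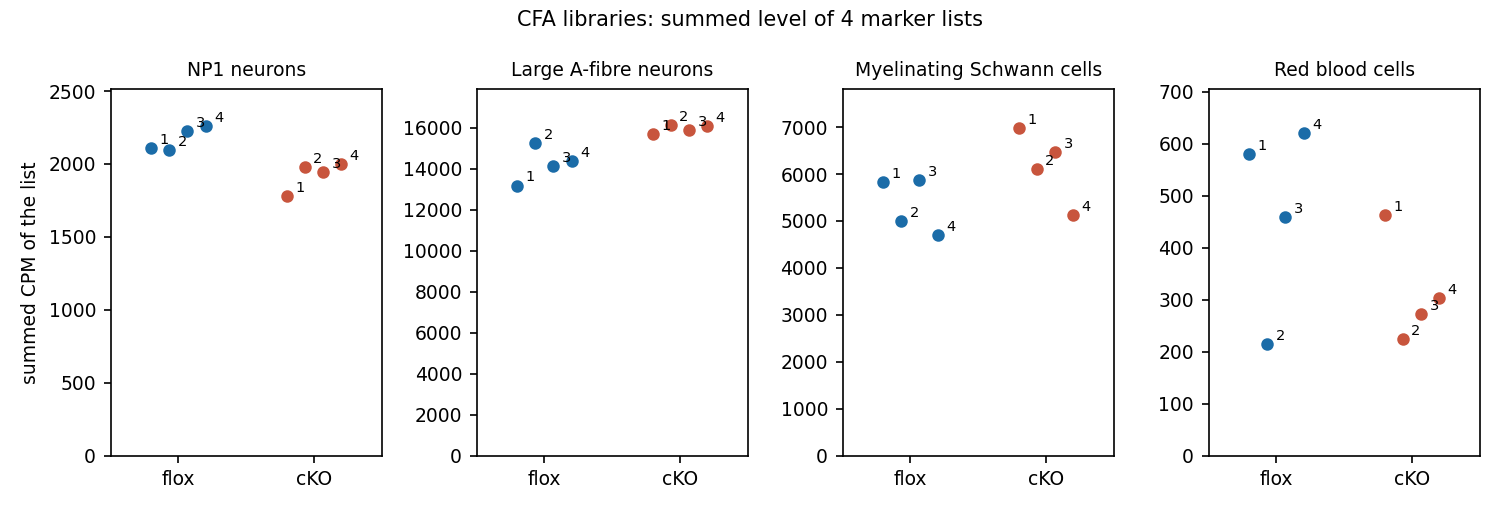
Summed CPM of the members of 4 marker lists in each of the 8 CFA libraries, numbered by replicate, with axes starting at 0. The NP1 and large A-fibre sums do not overlap between the labels (1777 to 2000 against 2093 to 2261, and 15680 to 16110 against 13170 to 15250), while the myelin and red cell sums do.

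Genes of large myelinated A-fibre neurons and proprioceptors lay on the other side. Of 14, 13 were above 0, with a median of 0.16 (0.13 to 0.19 with 1 library left out, 10 to 13 above 0). An unadjusted p under 0.05, with a higher level in cKO, was given to 4 of the 14, against 2.92% of all genes, and 3 were higher without overlap, against 1.77%. The summed level was 13170, 15250, 14110 and 14380 CPM in flox and 15680, 16110, 15860 and 16080 CPM in cKO, without overlap, and the 3 neurofilament genes make up most of it. Spp1, osteopontin, made in proprioceptors and also by macrophages, was at 195, 178, 162 and 163 CPM in flox and at 226, 211, 215 and 214 CPM in cKO (0.31, SE 0.07, adjusted p = 0.938 by edgeR and 0.0406 by DESeq2). Nefm, the medium neurofilament, was at 3317 to 3969 CPM in flox and 4087 to 4345 CPM in cKO (0.21, SE 0.07). Nefh, the heavy neurofilament, had 1 flox library, flox 2, within the cKO range (0.19, SE 0.08), and Etv1, a transcription factor of proprioceptors, overlapped more widely (0.33, SE 0.13). In LDRG libraries the list's median was 0.13.

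Genes of the itch neurons had medians below 0 but did not all go one way. The 5 NP2 genes, of the neurons that respond to chloroquine, had a median of -0.16, with 4 below 0 and 2, Mrgprx1 and Mrgprb4, lower at an unadjusted p under 0.05. The 9 NP3 genes, of the neurons that make somatostatin and natriuretic peptide, had a median of -0.17, with 7 below 0 and 1 higher and 1 lower at an unadjusted p under 0.05. Those 2 differed in sign: Sst, the somatostatin gene, was at 2.94, 3.05, 2.59 and 3.43 CPM in flox and at 3.78, 3.79, 5.08 and 4.53 CPM in cKO, without overlap (0.52, SE 0.14). Il31ra, the receptor for the itch cytokine interleukin-31, was at 32.3, 24.9, 29.6 and 37.7 CPM in flox and at 19.1, 26.4, 18.3 and 28.6 CPM in cKO (-0.43, SE 0.17), with overlap. Of 25 itch genes in all, 9 lay above 0 and 16 below, with a median of -0.03. Of the 25, 2 were higher and 2 lower at an unadjusted p under 0.05, against 2.92% and 2.04% of all genes.

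Across the 14 Mrgpr receptor genes tested the median was -0.09, with 3 above 0 and 11 below. Mrgprb4, a receptor of neurons that sense stroking, was at 9.57, 7.12, 14.5 and 15.8 CPM in flox and at 7.64, 8, 8.55 and 8.44 CPM in cKO (-0.53, SE 0.22). Flox 3 and 4 stood above the other 6. The 13 peptidergic nociceptor genes had a median of 0.06, with 8 above 0 and 0 at an unadjusted p under 0.05. All 6 genes of C-low-threshold mechanoreceptors were below 0, but by little (median -0.09), and 0 had an unadjusted p under 0.05.

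**Figure D5:**
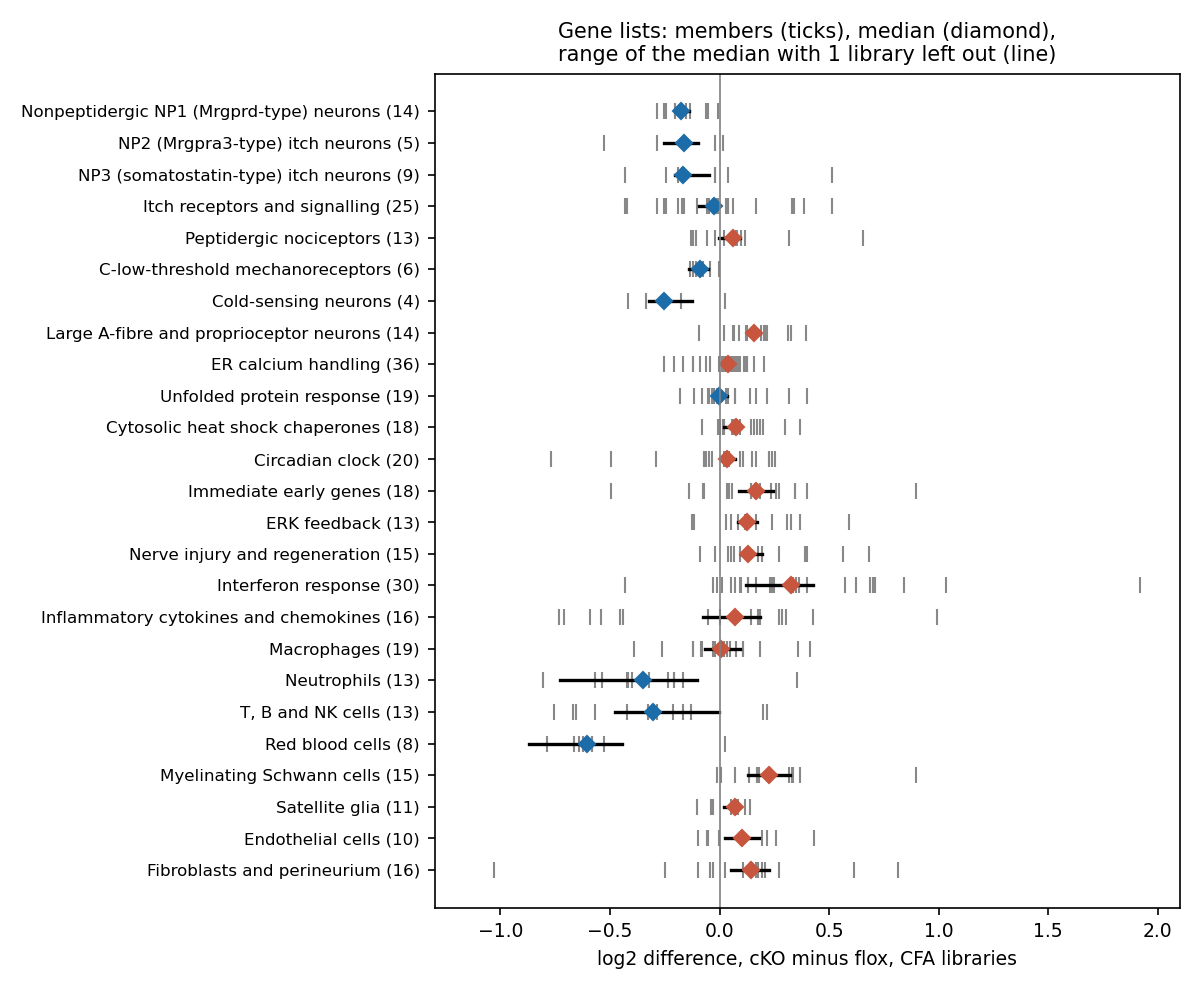
Differences (log2, cKO minus flox) of the members of 25 gene lists in CFA libraries; ticks are genes, diamonds the medians, and lines the range of the median when 1 library is left out, with the number of genes tested in brackets. NP1 genes all lie below 0 and all but 1 of the large A-fibre genes above it, and the lines are widest for the immune and red cell lists.

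Ion channels gave a mixed picture. Among 11 voltage-gated sodium channel genes the median was 0.00. Scn3b, an accessory subunit, was at 98.9, 90.5, 98.5 and 99.5 CPM in flox and at 81.7, 83.1, 87.8 and 85.4 CPM in cKO, without overlap (-0.20, SE 0.05). Scn11a, the NaV1.9 channel of nonpeptidergic neurons, was at 725 to 832 CPM in flox and 646 to 734 CPM in cKO (-0.17, SE 0.06). This gene is also counted among the NP1 genes above. Cacna2d2, a calcium channel subunit, had groups without overlap (-0.20, SE 0.06), and the 15 calcium channel genes had a median of -0.03. P2rx2, the partner of P2rx3 in heteromeric channels, was low, at 2.73, 2.94, 4.63 and 4.36 CPM in flox and at 2.15, 2.41, 2.78 and 2.82 CPM in cKO (-0.53, SE 0.20). Of 20 voltage-gated potassium channel genes 2 were higher and 1 lower at an unadjusted p under 0.05, against 2.92% and 2.04% of all genes. The potassium channel median was 0.01, and the 10 P2X and acid-sensing channel genes had a median of -0.04. TRP channels, which sense heat, cold and irritants, had a median of -0.06 over 16 genes with 0 at an unadjusted p under 0.05.

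Calcium handling in the endoplasmic reticulum is the subject named in the study's title. Of 36 such genes tested 0 had an unadjusted p under 0.05 in either direction, where 4.96% of all genes did. The median was 0.04 (0.02 to 0.05 with 1 library left out), with 27 above 0 and 9 below. Stim2, a sensor of calcium in the store, was at 44.7, 49.2, 49.5 and 48.4 CPM in flox and at 50.8, 51.3, 51.0 and 56.3 CPM in cKO, without overlap (0.13, SE 0.06, 95% interval 0.00 to 0.26). Sdf4, a calcium-binding protein of the secretory pathway, was the list's other gene without overlap, and lower, at 337, 338, 329 and 337 CPM in flox and at 324, 327, 325 and 185 CPM in cKO (-0.21, SE 0.16). It was picked after its values were seen, and cKO 4 alone lay far from the other 7 libraries. Stim1, the paralogue of Stim2, was at 63.1 to 70.2 CPM in flox and 57.4 to 63.8 CPM in cKO (-0.09, SE 0.06). The pump gene Atp2a2 (0.06, SE 0.07) and the release channel gene Itpr1 (0.09, SE 0.11) overlapped between groups. Unfolded protein response genes had a median of 0.00 over 19 genes. Of these, 2 were higher and 1 lower at an unadjusted p under 0.05, against 2.92% and 2.04% of all genes. The smallest p belonged to Sdf2l1, a partner of the chaperone BiP (0.32, SE 0.09).

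Genes that respond to nerve activity or injury lay mostly above 0. Of 18 immediate early genes 14 were above 0, against 52.5% of all genes, with a median of 0.17. Of the 18, 3 were higher at an unadjusted p under 0.05, against 2.92% of all genes. Without overlap, 2 were higher and 1 lower, against 1.77% and 1.61% of all genes. The lowest difference in the list was -0.50. Jun, a subunit of the AP-1 factor, was at 65.3, 80.9, 85.3 and 79.1 CPM in flox and at 101, 96.7, 93.8 and 83.7 CPM in cKO (0.27, SE 0.09). Atf3, the most widely used marker of injured sensory neurons, was at 7.56, 6.75, 8.18 and 6.08 CPM in flox and at 8.56, 9.21, 8.31 and 11.6 CPM in cKO (0.40, SE 0.13). The Atf3 groups did not overlap, though flox 3 lay just below cKO 3, and the Jun groups overlapped. Of 15 nerve injury genes 13 were above 0 (median 0.13), and of 13 ERK feedback genes 11 (median 0.13), the smallest p belonging to Spry4, an inhibitor of receptor tyrosine kinase signalling (0.37, SE 0.11). In LDRG libraries the medians of these 3 lists were below 0, at -0.12, -0.44 and -0.13.

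Interferon response genes had a median of 0.33, with 27 of 30 above 0, against 52.5% of all genes. Of the 30, 5 were higher and 1 lower at an unadjusted p under 0.05, against 2.92% and 2.04% of all genes. One library weighed heavily: without cKO 4 the median was 0.12. Mx1, an antiviral GTPase, was at 1.51, 0.779, 1.32 and 1.4 CPM in flox and at 7.14, 1.42, 1.88 and 8.50 CPM in cKO (1.92, SE 0.56), so that cKO 1 and 4 were high and cKO 2 lay within the flox range. Isg15, a ubiquitin-like modifier, was at 2.67, 2.46, 2.88 and 4.06 CPM in flox and at 5.83, 3.35, 5.38 and 7.12 CPM in cKO (0.84, SE 0.24). Ifit2, which blocks translation of viral RNA, went the other way without overlap, at 4.69 to 5.47 CPM in flox and 3.18 to 4.27 CPM in cKO (-0.43, SE 0.12). The list's summed level overlapped, at 701 to 972 CPM in flox and 800 to 1114 CPM in cKO.

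Markers of other immune cells and of blood gave medians on both sides of 0, with overlapping sums in each list. Neutrophil genes had a median of -0.35, with 12 of 13 below 0 and 0 at an unadjusted p under 0.05, but the summed level spread within each label from 46.8 to 146 CPM in flox and from 53.7 to 147 CPM in cKO, and the median was -0.73 without cKO 4 and -0.10 without flox 4. Genes of T, B and NK cells had a median of -0.30, with 11 of 13 below 0 and 0 at an unadjusted p under 0.05, and the median was -0.0017 without flox 1. Macrophage genes had a median of 0.01 over 19 genes, and inflammatory cytokines and chemokines one of 0.07 over 16. Mast cell genes had a median of 0.08, with 6 of 7 above 0, and MHC class I and II genes one of 0.08, with 12 of 17 above 0, and neither list had a gene at an unadjusted p under 0.05. Red blood cell genes had a median of -0.60, with 7 of 8 below 0 and a summed level of 581, 214, 459 and 621 CPM in flox and 464, 224, 272 and 303 CPM in cKO. The red cell ranges overlapped, and the part of blood in the differences of other genes was not tested.

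Skeletal muscle genes depended on single libraries, flox 1 above all. Their summed level was 196 CPM there and 63.4 to 78.2 CPM in the other flox libraries, against 114 CPM in cKO 1 and 66.4 to 79.7 CPM in the other cKO libraries. The median of 11 genes was -1.68 with all libraries, 1.35 without flox 1 and -2.77 without cKO 1. Acta1, skeletal actin, was at 23.7 CPM in flox 1 and at 3.09 CPM or below in the other 7. Adipocyte genes had a median of 0.30 over 8 genes, which was -0.23 without cKO 3 and 1.38 without flox 1. Flox 1 was also the library with the smallest quality weight in the voom fit (0.465), followed by cKO 4 (0.509), the others lying between 0.899 and 1.89.

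Glia of the nerve lay slightly above 0. Of 15 myelinating Schwann cell genes 14 were above 0, with a median of 0.22 (0.13 to 0.32 with 1 library left out). Ugt8a, which makes the myelin lipid galactosylceramide, was at 67.4 to 103 CPM in flox and 90.5 to 112 CPM in cKO (0.37, SE 0.13), and Fa2h, which hydroxylates such lipids, was at 22.1 to 29.8 CPM in flox and 26.3 to 38.3 CPM in cKO (0.33, SE 0.13). The summed level was 5822, 5005, 5879 and 4704 CPM in flox and 6988, 6102, 6470 and 5119 CPM in cKO, in which cKO 4 fell among the flox libraries. Satellite glia genes had a median of 0.07 over 11 genes, non-myelinating and repair Schwann cell genes 0.02 over 10, endothelial genes 0.10 over 10, and pericyte genes 0.00 over 10. These 4 lists held 0 genes with an unadjusted p under 0.05.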

How the data were processed

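Poly-A RNA of whole ganglia was sequenced as paired reads, per the labels' protocols. The authors deposited unnormalized read counts by gene symbol, in a table of 14 libraries and 24524 genes. The submitters' processing notes name fastp 0.23.2, BWA 2.2.1, SAMtools 1.14, DESeq2 1.40.2 and mm10, without roles; the counting tool and strand setting are not given in the sources used here. Genotype came from sample titles, because the genotype field names the Cre line for every sample.

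Genes passing filterByExpr (minimum count 10, total 15) were tested among the 8 CFA libraries in R 4.3.3 with edgeR 4.0.16 (TMM, quasi-likelihood F test, Benjamini-Hochberg, adjusted p under 0.05). Each SE is the log2 difference over the root of F. The comparison with LDRG used 1 fit of 14 libraries. DESeq2 1.42.0 and limma 3.58.1 voom were alternatives, along with RLE size factors, no filter, a filter at a mean of 5 CPM, a replicate block, removal of genes at 2 levels, and leaving out each library. The tests were checked on simulated counts. Positions came from GENCODE vM21, which matched 97.3% of symbols.

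The 48 gene lists, the libraries and the tests were chosen with earlier results of these data known. Lists are described by counts and medians without a test. Named genes are Tmem45b, Mrgprd, the 20 smallest p, all DESeq2 calls, the 10 largest differences per direction among genes without overlap at a mean of 5 CPM or more, and up to 4 members per list by smallest p. Genes of the sex-linked list were left out of the 20 and of the 10 largest. Symbols of the Rik, Gm and LOC kinds were left out of the 20. Stim1, Sdf4, Atp2a2, Itpr1 and Ddx3y are outside this rule and were picked after their values were seen.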

Additional observations from a re-analysis of the deposited data

Results flagged for a closer look

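In groups of 4 libraries, 1 library was set apart when its gap to the nearest other exceeded the 95% critical value of Dixon's test. Of 144 groups examined 7 had such a library, and 1 in 20 by chance would be 7.2.

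Cipc was at 67.68 CPM in flox 1 against 113 to 119.9 CPM in the other flox libraries, and Luc7l at 31.9 CPM in flox 1 against 85.57 to 93.17 CPM. Skeletal muscle genes summed to 196 CPM in flox 1 against 63.42 to 78.18 CPM, so this library stood apart 3 times. Yes1 was at 38.36 CPM in cKO 4 against 30.6 to 31.26 CPM in the other cKO libraries. ERK feedback genes summed to 611.8 CPM in flox 3 against 699.1 to 710.1 CPM, and circadian clock genes to 766.7 CPM in flox 4 against 743.4 to 747 CPM. Mast cell genes summed to 127.9 CPM in cKO 2 against 111.9 to 114.6 CPM. Most of this sum was Kit, at 116.7 CPM in cKO 2 and 99.26 to 101.9 CPM in the other cKO libraries. Every other member was at 2.81 CPM or below in cKO 2.

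The genotype difference of Tmem45b in CFA libraries was 0.7942 above that in LDRG libraries on the log2 scale (edgeR, unadjusted p = 0.0338, adjusted p = 0.942 over all genes). It was positive in all 15 alternatives run, from 0.64 without flox 1 to 0.99 without flox 3, with adjusted p from 0.636 to 0.9999.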

How the results depend on the processing

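Genes called numbered 0 by edgeR, 18 by DESeq2 and 0 to 2 when 1 library was left out. Those calls were Luc7l and Cipc (without flox 1), Rab10os (without flox 2), Tor1b and Tcf4 (without flox 3), Naa20 (without flox 4) and Plekhm3 (without cKO 3). Tor1b and Naa20 were chosen after their values were seen. For Luc7l, Cipc, Rab10os, Tcf4 and Plekhm3 the library left out was the one nearest the other label. Leaving out such a library by itself lowers p. Genes without overlap numbered 545, and between 891 (without cKO 3) and 1195 (without flox 1) with 1 library left out, since fewer libraries have to be separated. RLE size factors, voom, no filter, the CPM filter, the fit over 14 libraries and removal of genes at 2 levels gave 0 calls. Tmem45b stayed below 0 in all 16 alternatives run, with adjusted p from 0.815 to 0.998. For Mrgprd, the 20 genes with the smallest p and Tmem170b, the other genes refitted one by one, 327 values kept their direction and side of the threshold, 21 newly passed it and 0 reversed.

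Replicate numbers did not pair the libraries: deviations of same-numbered libraries correlated at 0.0373, 0.00991, -0.0125 and 0.0613. With a replicate block there were 0 calls, Tmem45b was at -0.19 and its difference from LDRG at 0.81. Of the list medians, those of skeletal muscle and adipocyte genes moved most when 1 library was left out, an alternative added after the data were seen.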

Other observations

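The remaining gene groups had medians close to that of all genes, 0.01, except the genes of cold-sensing neurons. Glucocorticoid and metallothionein response genes had a median of 0.07, with 10 of 12 above 0 and 3 higher at an unadjusted p under 0.05 (edgeR), against 2.92% of all genes. Errfi1, an inhibitor of the EGF receptor, was at 31.6, 35.8, 38.1 and 37.0 CPM in flox and at 44.3, 40.5, 41.4 and 41.7 CPM in cKO, without overlap (0.24, SE 0.07). Sgk1, a kinase induced by glucocorticoids, overlapped (0.28, SE 0.09). Fatty acid synthesis genes had a median of 0.02 over 12 genes, and Me1, which supplies NADPH for the pathway, was higher without overlap, at 91.7 to 109 CPM in flox and 109.99 to 119.9 CPM in cKO (0.20, SE 0.06). Genes of cold-sensing neurons had a median of -0.26 over 4 genes, their summed level being 110.3 CPM in flox 1 and 62.2 to 81.9 CPM in the other 7 libraries. Opioid, cannabinoid and GABA-B receptor genes (median -0.03 over 8) and neurotrophin and GDNF receptor genes (0.02 over 9) had 0 members at an unadjusted p under 0.05.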
